A study of Mus musculus with 4 samples.

Results

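Foxl2, Runx1, Gata4, Gata6, Irx3, Irx5 and Wt1 encode transcription factors that set or keep the identity of granulosa cells, the somatic cells that surround the oocyte in the follicle. These 7 genes were taken by their names from a deposited table of 21958 mouse genes. All 7 were present and all 7 passed the filter on low counts, among 15311 genes tested. RNA was sequenced from whole ovary in 4 libraries, 2 from ++Oxtr transgenic mice (replicates 3 and 4), which overexpress the oxytocin receptor, and 2 from wild-type mice (WT, replicates 5 and 6). Females were sampled in diestrus (the quiet stage of the estrous cycle), as the series' design states, and the question it names is how the receptor acts on follicle development. The labels give no age and no strain, do not name the promoter of the transgene, and do not say whether a library held 1 ovary or a pool. The source and tissue fields name ovary, while the extraction protocol names white adipose tissue.

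As background, FOXL2 is a forkhead protein that adult mouse granulosa cells need to stay ovarian: when it is removed, they take on features of Sertoli cells, the supporting cells of the testis, and switch on Sox9. RUNX1 acts beside FOXL2 in the fetal mouse ovary. GATA4 and GATA6 are zinc finger factors that regulate steroid and inhibin genes in granulosa, theca and luteal cells. IRX3 and IRX5 are homeodomain factors of the Iroquois family that shape contacts between granulosa cells and the oocyte in mice. WT1 is a zinc finger factor of the early gonad, of granulosa cells of small follicles and of the ovarian surface. Runx1 is also a blood cell gene and Wt1 also a mesothelium gene, so a whole ovary does not read these factors from granulosa cells alone. In bulk tissue, fewer cells of a type and less RNA per cell cannot be told apart.

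None of the 7 genes passed the test between ++Oxtr and WT ovaries. With edgeR's quasi-likelihood test, adjusted by the Benjamini-Hochberg method, 0 of 7 passed the threshold of 0.05, where 0% of the 15311 genes tested passed and the smallest adjusted p of any gene was 0.177. At an unadjusted p under 0.05, 0 of 7 passed, against 2.57% of all genes tested. DESeq2 also called 0 of 7, against 0.382% of the 18310 genes it gave an adjusted p. The fitted log2 differences (++Oxtr minus WT) of the 7 genes ran from -0.25 for Gata4 to 0.18 for Foxl2, with a median of 0.02, and the median over all genes tested was -0.0033. In 7 of 7 the larger gap between 2 libraries of a genotype exceeded the difference between genotypes, as it did in 84.2% of all genes tested.

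The libraries differed in ways that bear on these genes. Oxtr itself had a TMM-scaled CPM (a count scaled to the size of its library) of 110 and 161 in ++Oxtr against 29.2 and 55.5 in WT, as the labels would have it. Its log2 difference was 1.68 ± 0.39 (SE, edgeR, unadjusted p = 0.0103). After adjustment Oxtr did not pass in edgeR, while DESeq2 gave it an adjusted p of 0.00692. The main test thus missed the overexpressed gene itself, so a gene that does not pass is not thereby shown to be unchanged. Oviduct epithelium markers were nearly missing in ++Oxtr replicate 3, which had a summed 74.6 CPM over 11 genes. The sum was 3328 CPM in ++Oxtr replicate 4, and 2710 and 1225 CPM in WT replicates 5 and 6. Ovgp1, the oviduct glycoprotein gene, alone made up 2576, 1974 and 582 CPM of these sums. Over the 11 genes, the median log2 ratio of WT replicate 6 to WT replicate 5 was -0.18. Luteal cell markers as a sum were high in WT replicate 6 alone, with 9796 CPM over 10 genes against 2340 to 2542 CPM in the other 3 libraries. WT replicate 6 was above WT replicate 5 in 9 of 9 luteal genes tested, but the list was not uniform. Cited4 was at 8.42 and 40.2 CPM in ++Oxtr and 32.1 and 39.9 CPM in WT, and Parm1 at 37.1 and 51.0 CPM in ++Oxtr and 51.2 and 56.4 CPM in WT. Adipocyte markers summed to 2007 and 1406 CPM in ++Oxtr and to 190 and 178 CPM in WT. Results are therefore given below also without ++Oxtr replicate 3 and without WT replicate 6. Neither step removes the adipocyte difference, which lies along genotype. The median log2 difference of its 8 genes was 3.41, and it was 3.06 without ++Oxtr replicate 3 and 3.31 without WT replicate 6. In DESeq2, 8 of 8 passed, against 0.382% of all genes it gave an adjusted p. Adipose content and genotype cannot be told apart here.

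The order of the 7 genes by level was read from the deposited FPKM values, which are per gene length. Foxl2 had the highest level, with a mean of 58.9 FPKM over the 4 libraries (range 49.2 to 62.6), which put it in the top 2.75% of all genes in the table. Gata4 followed at 41.4 FPKM (33.5 to 55.3), Wt1 at 28.7 (26.3 to 30.3), Gata6 at 14.3 (13.9 to 14.8), Irx3 at 6.23 (4.91 to 8.14), Runx1 at 4.50 (3.94 to 4.84) and Irx5 at 1.92 (1.41 to 2.40). The ranges of Foxl2 and Gata4 overlapped across libraries, although Foxl2 was the higher in each of the 4, while every other pair of neighbours in that order was separated. Irx3 and Runx1 were separated only narrowly.

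**Figure D1:**
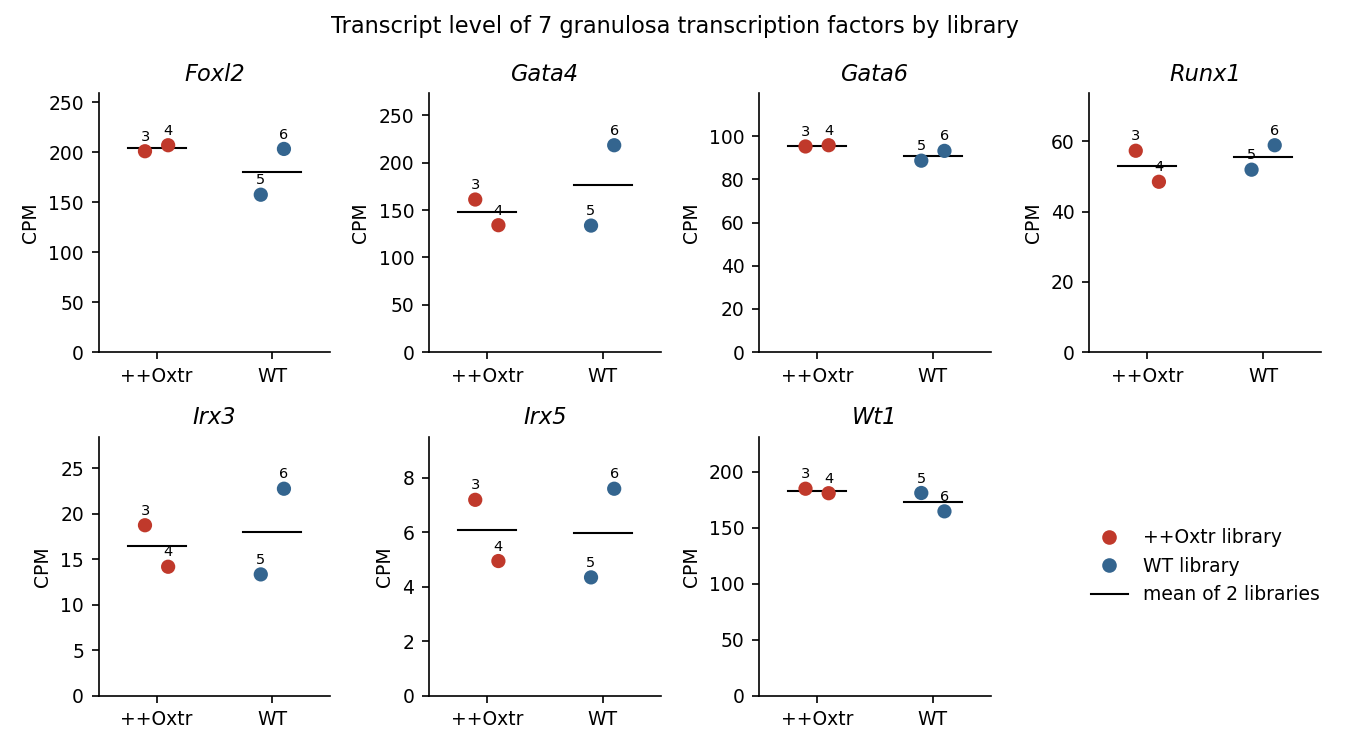
TMM-scaled CPM of each of the 7 genes (vertical axis, from 0) in ++Oxtr and WT ovaries, 1 point per library with its replicate number and a bar for the mean of 2 libraries. Gata6 and Wt1 lie close together in all 4 libraries, while Gata4, Irx3 and Irx5 spread within each genotype, with WT replicate 6 highest.

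Foxl2 (ENSMUSG00000050397) lies on chromosome 9, plus strand, from 98837341 to 98840596 in the deposited table, whose build it does not name. Foxl2 was at 201 and 207 CPM in ++Oxtr replicates 3 and 4, against 158 and 203 CPM in WT replicates 5 and 6. WT replicate 5 was the low library and WT replicate 6 lay between the ++Oxtr libraries, so the genotypes overlapped. The means were 204 ± 4.20 CPM in ++Oxtr and 180 ± 32.4 CPM in WT (SD, n = 2 each). The log2 difference was 0.18 ± 0.16 (SE, edgeR, unadjusted p = 0.317, adjusted p = 1). Its 95% interval spans 0.843-fold to 1.52-fold. The difference rested on WT replicate 5: without it the log2 difference was -0.00020. It was 0.20 without ++Oxtr replicate 3 and 0.37 without WT replicate 6.

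Runx1 (ENSMUSG00000022952) spans 92398354 to 92623037 on the minus strand of chromosome 16 in the deposited table. Runx1 was at 57.3 and 48.5 CPM in ++Oxtr replicates 3 and 4, against 51.9 and 58.9 CPM in WT replicates 5 and 6. The values of the genotypes interleaved. The log2 difference was -0.07 ± 0.14 (SE, edgeR, adjusted p = 1), with a 95% interval of 0.732-fold to 1.24-fold. It was -0.19 without ++Oxtr replicate 3 and 0.03 without WT replicate 6. Immune markers, whose cells also express Runx1, summed to 733 and 502 CPM in ++Oxtr and to 624 and 336 CPM in WT over 11 genes, with none at 0 in all libraries. Runx1 was highest in WT replicate 6, where that sum was lowest. The part of immune cells in the Runx1 level was not tested. RefSeq lists 2 starts for Runx1, and the table gives 1 count for the gene, so use of either start is not read here.

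Gata4 (ENSMUSG00000021944) is on the minus strand of chromosome 14, from 63436371 to 63509141 in the deposited table. Gata4 was at 161 and 134 CPM in ++Oxtr replicates 3 and 4, against 134 and 218 CPM in WT replicates 5 and 6. WT replicate 6 stood above the other 3 libraries, and ++Oxtr replicate 4 and WT replicate 5 were nearly level. The means were 148 ± 19.2 CPM in ++Oxtr and 176 ± 60.0 CPM in WT (SD, n = 2 each). The log2 difference was -0.25 ± 0.27 (SE, edgeR, unadjusted p = 0.401, adjusted p = 1). Its 95% interval ran from 0.503-fold to 1.40-fold. Its sign turned without WT replicate 6, where the log2 difference was 0.14, and it was -0.40 without ++Oxtr replicate 3.

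Gata6 (ENSMUSG00000005836), on the plus strand of chromosome 18 from 11052064 to 11085635, was the steadiest of the 7. Gata6 was at 95.2 and 95.8 CPM in ++Oxtr replicates 3 and 4, against 88.6 and 93.2 CPM in WT replicates 5 and 6. It was the 1 gene of the 7 whose ++Oxtr libraries both lay above both WT libraries. That order was found in 14.5% of all genes tested, and 26.1% had genotypes that did not overlap in either direction. The log2 difference was 0.07 ± 0.10 (SE, edgeR, unadjusted p = 0.494, adjusted p = 1), and its 95% interval ran from 0.879-fold to 1.26-fold. The gap between the WT libraries, 0.072 on the log2 scale, was as large. The coefficient of variation over 4 libraries was 3.48% for Gata6 and 24.7% for Gata4, against a median of 14% over all genes tested. The ratio of Gata4 to Gata6 by FPKM was 2.82 and 2.33 in ++Oxtr, against 2.51 and 3.91 in WT. The unequal ratio shows that these GATA factors did not vary together across libraries, and it separated WT replicate 6 rather than the genotypes.

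Irx3 (ENSMUSG00000031734, chromosome 8, minus strand, 92525153 to 92528695) and Irx5 (ENSMUSG00000031737, plus strand, 93084253 to 93102914) belong to 1 Iroquois cluster and lie 556 kb apart in the deposited table. Irx3 was at 18.7 and 14.2 CPM in ++Oxtr replicates 3 and 4, against 13.3 and 22.7 CPM in WT replicates 5 and 6. Irx5 was at 7.19 and 4.94 CPM in ++Oxtr and at 4.34 and 7.60 CPM in WT, from 111, 74, 73 and 121 counts. Both genes were highest in WT replicate 6, second in ++Oxtr replicate 3 and lowest in WT replicate 5, so the genotypes overlapped for each. The log2 difference was -0.13 ± 0.35 (SE) for Irx3 and 0.02 ± 0.44 for Irx5, each with an adjusted p of 1 in edgeR. The 95% intervals were wide, 0.472-fold to 1.76-fold for Irx3 and 0.446-fold to 2.32-fold for Irx5. The sign of Irx3 turned without WT replicate 6 (log2 difference 0.30) and that of Irx5 without ++Oxtr replicate 3 (-0.27). The ratio of Irx3 to Irx5 by FPKM was 2.95 and 3.24 in ++Oxtr, and 3.47 and 3.39 in WT, a mean of 3.10 ± 0.209 against 3.43 ± 0.0615 (SD, n = 2 each). The highest library thus exceeded the lowest by 1.71-fold for Irx3 and by 1.75-fold for Irx5, while their ratio kept to a narrower range.

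Wt1 (ENSMUSG00000016458, chromosome 2, plus strand, 104956874 to 105003961) was at 185 and 181 CPM in ++Oxtr replicates 3 and 4, against 181 and 165 CPM in WT replicates 5 and 6. WT replicate 6 was lowest, and the other 3 libraries were within 4 CPM of each other. The means were 183 ± 2.82 CPM in ++Oxtr and 173 ± 11.6 CPM in WT (SD, n = 2 each). The log2 difference was 0.08 ± 0.10 (SE, edgeR, unadjusted p = 0.481, adjusted p = 1), with a 95% interval of 0.869-fold to 1.29-fold. It was 0.01 without WT replicate 6 and 0.06 without ++Oxtr replicate 3. Wt1 is also made by the ovarian surface, whose 11 markers summed to 741 and 993 CPM in ++Oxtr and to 761 and 480 CPM in WT. The most abundant of them, Upk3b (a uroplakin of mesothelium), was at 231 and 165 CPM in ++Oxtr and 114 and 63.0 CPM in WT, lowest in the library where Wt1 was lowest. Gpm6a, Krt19, Lrrn4, Msln and Muc16 were lowest there too, but the list was not uniform. Lgr5 was highest there (49.7 CPM), and Krt7, Krt8 and Krt18 were lowest in ++Oxtr replicate 3. Of these markers, 5 of 11 were higher in both ++Oxtr libraries, an order that 14.5% of all genes tested had, and 0 passed in edgeR. The list's median log2 difference was 0.55, and it was lowest at 0.38 without WT replicate 6 and highest at 1.003 without WT replicate 5. The part of surface cells in the Wt1 level was not tested.

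**Figure D2:**
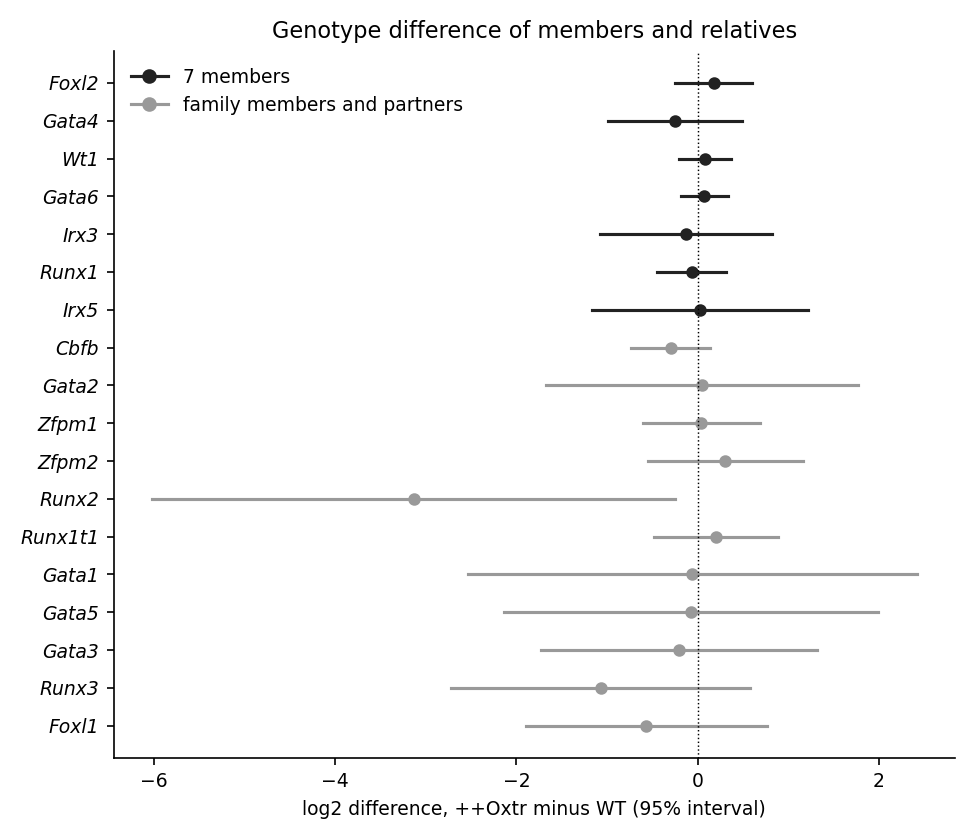
Log2 difference of ++Oxtr minus WT with its 95% interval from edgeR for the 7 genes (black) and 11 tested relatives and partners (grey), each set ordered by level. The intervals of all 7 include 0 and are narrowest for Gata6 and Wt1, and the interval of Runx2, from -6.02 to -0.25, is the 1 that does not include 0.

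Gata4, Irx3, Irx5 and Runx1 shared an order of libraries that followed neither genotype. In each of these 4, ++Oxtr replicate 3 and WT replicate 6 were both above ++Oxtr replicate 4 and WT replicate 5. This order was seen after the values were known and carries no test. It was met by 4 of 7 factors and by 17.6% of all genes tested. The ratio of WT replicate 6 to WT replicate 5 was 1.64-fold for Gata4, 1.71-fold for Irx3, 1.75-fold for Irx5 and 1.13-fold for Runx1. The ratio of ++Oxtr replicate 3 to ++Oxtr replicate 4 was smaller for Gata4 (1.20-fold), Irx3 (1.32-fold) and Irx5 (1.46-fold), and for Runx1 it was 1.18-fold. Foxl2, Gata6 and Wt1 did not have that order.

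Smooth muscle and oviduct epithelium markers mostly moved across the libraries in the opposite order. That was not general to the other lists. Among 12 oocyte markers, 5 had the order of Gata4, Irx3, Irx5 and Runx1 and 0 had the opposite. Among 13 tested testis genes these counts were 5 and 2, and among 11 surface markers 1 and 3. Over all genes tested the shares were 17.6% and 19.9%. Smooth muscle markers summed to 1884 and 4449 CPM in ++Oxtr replicates 3 and 4, and to 3397 and 2513 CPM in WT replicates 5 and 6. In 6 of 7 smooth muscle markers and 8 of 11 oviduct epithelium markers, ++Oxtr replicate 3 and WT replicate 6 were both below the other 2 libraries, against 19.9% of all genes tested. The gap was mostly within ++Oxtr. The median log2 ratio of ++Oxtr replicate 3 to ++Oxtr replicate 4 was -1.2 for smooth muscle and -4.5 for oviduct markers. That of WT replicate 6 to WT replicate 5 was -0.21 and -0.18. No marker of either list was at 0 in every library, and Ovgp1 (the oviduct glycoprotein) ranged from 15.9 CPM in ++Oxtr replicate 3 to 2576 CPM in ++Oxtr replicate 4. Their part in the levels of Gata4, Irx3, Irx5 and Runx1 was not tested.

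**Figure D3:**
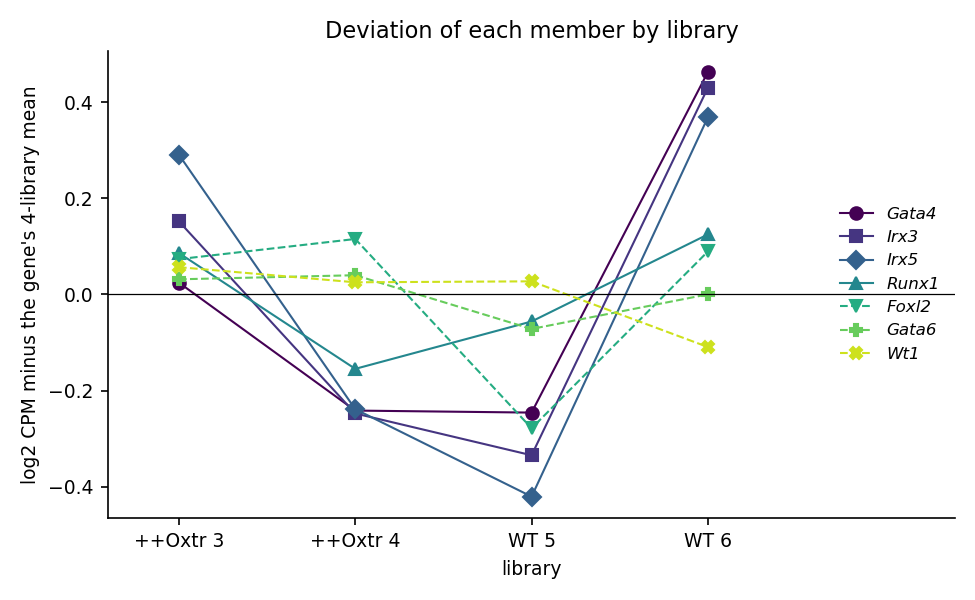
Deviation of log2 CPM from each gene's mean over 4 libraries (vertical axis) by library (horizontal axis), with lines that only link the values of 1 gene. Gata4, Irx3 and Irx5 run together, from -0.42 (Irx5, WT replicate 5) to 0.46 (Gata4, WT replicate 6), while Gata6 and Wt1 stay within 0.11 of 0.

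**Figure D4:**
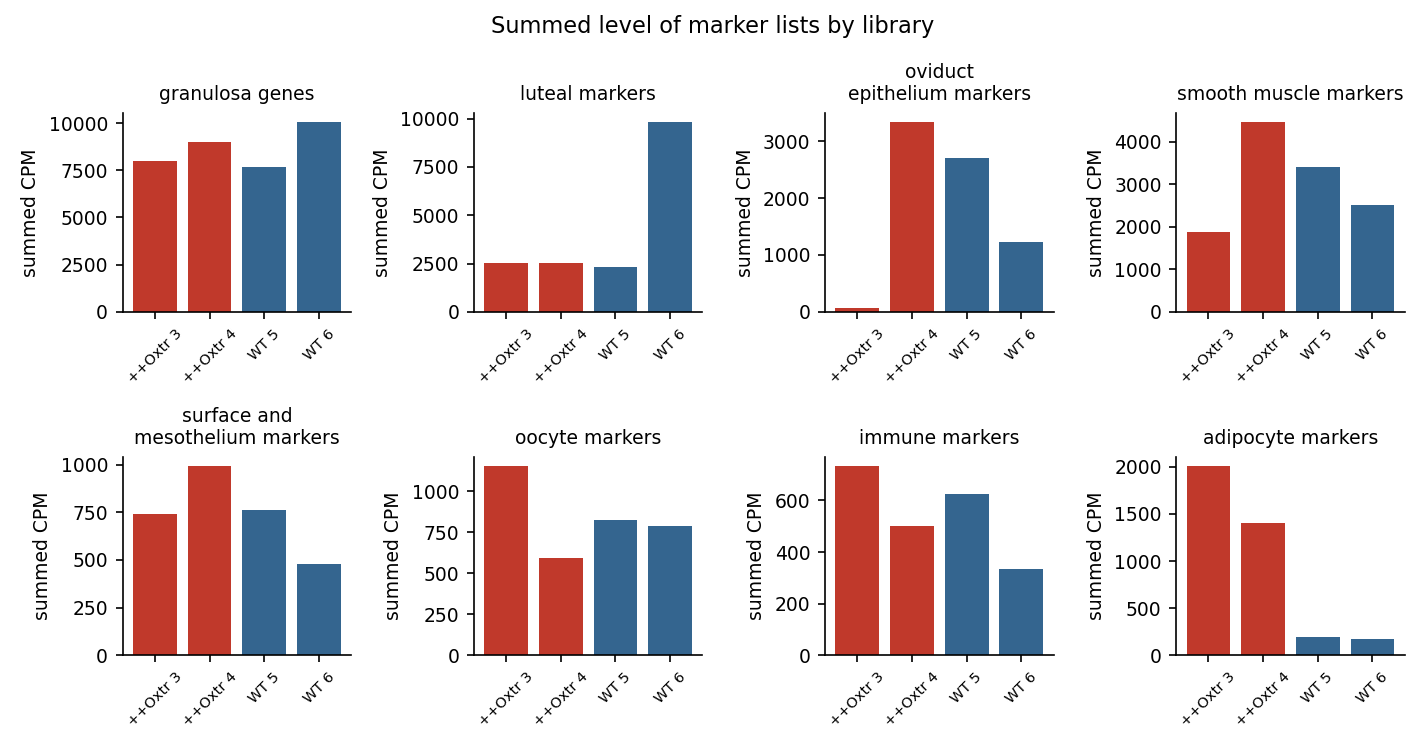
Summed TMM-scaled CPM of the genes of 8 marker lists (vertical axis, from 0) in each ++Oxtr library (red) and each WT library (blue). Luteal markers stand out in WT replicate 6 (9796 CPM), oviduct markers are nearly missing in ++Oxtr replicate 3 (74.6 CPM), and adipocyte markers are high in both ++Oxtr libraries.

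The likeness of other genes to each factor was measured as the distance between their centred log2 CPM values over the 4 libraries, a description of 4 points that share the libraries. Among genes of the lists used here, Gata4 and Irx3 were nearest to each other (distance 0.159), and the gene nearest to Irx5 was Irx3 (0.175). Foxl2 was nearest to Gja1, the gap junction gene connexin 43 of granulosa cells (0.110), which was at 2085 and 2007 CPM in ++Oxtr and 1678 and 2161 CPM in WT. Gja1 thus shared the low WT replicate 5. Runx1 was nearest to Gatm (0.0416), Gata6 to the forkhead gene Foxo1 (0.0698) and Wt1 to Gata6 (0.151). Among all genes of at least 10 CPM, the nearest were Bnip3 and Obsl1 for Foxl2, Grhpr and Frrs1 for Gata4, and Tmem209 and Mysm1 for Gata6. They were Cnnm3 and Dctn3 for Runx1, Klhl5 and Psen2 for Irx3, Coq8a and Plin2 for Irx5, and Snx5 and Lix1l for Wt1. Plin2, a lipid droplet coat gene, was at 128 and 81.7 CPM in ++Oxtr and 71.1 and 124 CPM in WT, the library order of Irx5 apart from the top place.

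Sequence just before the start of transcription is shown for Foxl2, the most abundant factor, and for Irx3, which shared its order of libraries with Gata4. Each is the 250 bases upstream of the start in RefSeq (GRCm38.p6), read 5′ to 3′ on the gene's strand at chr9:98955357-98955606 (plus strand) and chr8:91801655-91801904 (minus strand). Positions of that build are not comparable with those of the deposited table. Capitals mark a match to a RUNX motif.
Foxl2: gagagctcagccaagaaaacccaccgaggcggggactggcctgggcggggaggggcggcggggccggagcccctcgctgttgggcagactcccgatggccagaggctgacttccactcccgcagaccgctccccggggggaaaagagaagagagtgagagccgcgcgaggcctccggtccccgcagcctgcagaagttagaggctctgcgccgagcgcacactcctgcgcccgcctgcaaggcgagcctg
Irx3: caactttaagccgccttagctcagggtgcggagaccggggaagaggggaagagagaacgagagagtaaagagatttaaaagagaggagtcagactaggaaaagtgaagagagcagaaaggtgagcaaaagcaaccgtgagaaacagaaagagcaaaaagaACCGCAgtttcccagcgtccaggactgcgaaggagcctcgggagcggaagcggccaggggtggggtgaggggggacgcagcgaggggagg

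The Foxl2 window is GC-rich, at 70.8% G and C against 56% in the Irx3 window. Motifs of the families of these factors were searched on both strands in 32817 RefSeq windows of the same length. GATA motifs (AGATAA or TGATAA, each also with G as its last letter) were found in 26.6% of all windows and in neither of the windows shown. RUNX motifs (TGTGGT, or TGCGGT) were found in 18.6% of windows and once in the Irx3 window, on the reverse strand, with its first base 90 bases before the start. The forkhead motif GTAAACA (3.16% of windows), the Iroquois motif ACANNTGT (6.32%) and the WT1 motif GCGTGGGAG (0.405%) were in neither. A match describes the letters of the window, and RefSeq windows were found for 3 of the 7 genes (Foxl2, Runx1 and Irx3).

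Relatives of the 7 factors and their binding partners were mostly less abundant, with at most 7.05 FPKM on average for any but Cbfb (41.6 FPKM). Of 15 such genes, 11 were tested and 0 passed in edgeR, with 4 above 0 on the log2 scale, 7 below, and a median of -0.07. That median was -0.48 without ++Oxtr replicate 3, -0.54 without WT replicate 6 and 0.17 without WT replicate 5. Cbfb, the partner that RUNX proteins bind DNA with, was at 144 and 116 CPM in ++Oxtr and 147 and 172 CPM in WT. Zfpm2 (FOG2), the cofactor of GATA4, was at 56.5 and 31.6 CPM in ++Oxtr and 38.5 and 33.0 CPM in WT. Zfpm1 (FOG1) was at 21.9 and 23.1 CPM in ++Oxtr and 25.6 and 18.2 CPM in WT. Gata2, a factor of blood and endothelium, was at 26.0 and 51.4 CPM in ++Oxtr and 56.3 and 18.6 CPM in WT, lowest in ++Oxtr replicate 3 and WT replicate 6, the libraries where Gata4 was highest. Of the other Iroquois genes, Irx6 had 0 counts in every library and Irx1, Irx2 and Irx4 had at most 6 counts in any, where a count of 0 allows up to 0.178 to 0.200 CPM per library for counting error only.

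Runx2, named after its values were seen, had the largest difference of the relatives. Runx2 was at 5.12 and 3.21 CPM in ++Oxtr and at 8.39 and 64.9 CPM in WT, so that WT replicate 6 alone held the high level. Its log2 difference was -3.13 ± 1.07 (SE), with adjusted p = 1 and unadjusted p = 0.0390 in edgeR and adjusted p = 0.0780 in DESeq2. RUNX2 is known in the mouse as a factor of bone and of luteinising granulosa cells. The luteal markers as a sum were high in that same library, and their part in the Runx2 level was not tested.

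**Figure D5:**
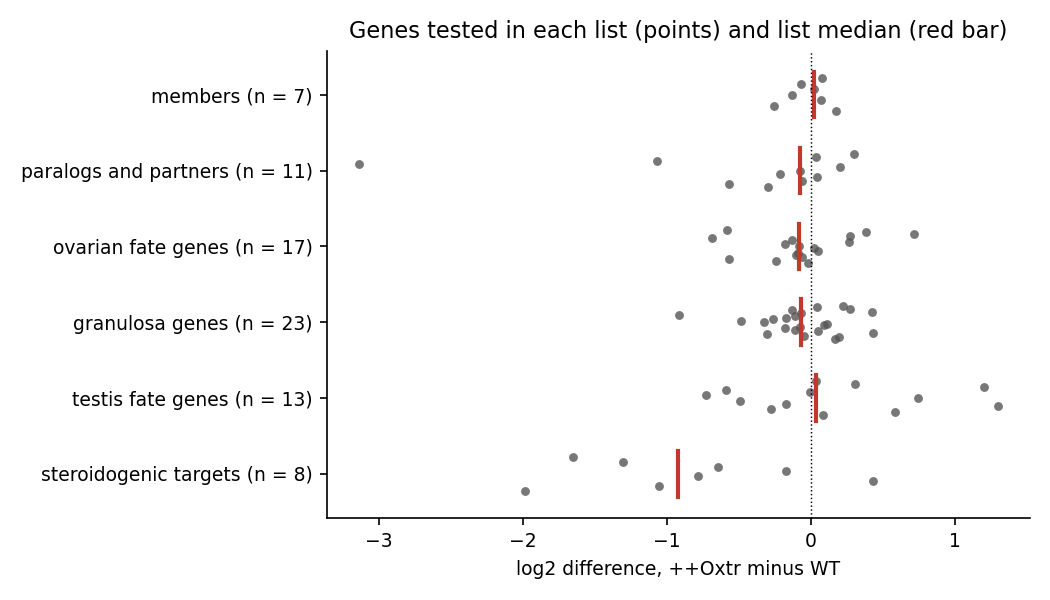
Log2 difference of ++Oxtr minus WT (horizontal axis) for each tested gene (points) of the 7 factors and of 5 lists, with the list median as a red bar. The 7 factors lie within -0.25 to 0.18, granulosa genes have a median of -0.07, and the list of steroidogenic targets one of -0.92 that rests on WT replicate 6.

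Other genes of ovarian fate gave no call and no common direction. Of 18 genes, 17 were tested, 0 passed in edgeR, 6 were above 0 and 11 below, and the median log2 difference was -0.08 (-0.17 to 0.03 over fits that left out 1 library). Nr5a2 (LRH-1, a nuclear receptor of granulosa cells) was at 509 and 503 CPM in ++Oxtr and 417 and 418 CPM in WT. Its replicates were closely matched and the genotypes did not overlap, with a log2 difference of 0.28 ± 0.11 (SE, edgeR, unadjusted p = 0.0627, adjusted p = 1). Foxo1 was at 399 and 402 CPM in ++Oxtr and 375 and 414 CPM in WT. Ctnnb1 (beta-catenin of Wnt signalling) was at 430 and 552 CPM in ++Oxtr and 499 and 525 CPM in WT. In 6 of the 17, ++Oxtr replicate 3 and WT replicate 6 were both above the other 2 libraries, against 17.6% of all genes tested, and in 3 both were below, against 19.9%. Wnt4 and Nr5a1 (SF-1), named after their values were seen, were among the 6. Wnt4 was at 76.8 and 43.8 CPM in ++Oxtr and 51.9 and 129 CPM in WT. Nr5a1 was at 158 and 116 CPM in ++Oxtr and 144 and 296 CPM in WT. Esr1, an estrogen receptor gene, was among the 3 with the opposite order, at 122 and 343 CPM in ++Oxtr and 341 and 154 CPM in WT.

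Granulosa genes, several of them known targets of the 7 factors, showed no common direction. All 23 were tested, 0 passed in edgeR, 10 were above 0 and 13 below, and the median log2 difference was -0.07 (range over fits that left out 1 library, -0.15 to 0.06). Inha, the inhibin alpha gene and a GATA target, was at 1089 and 1331 CPM in ++Oxtr and 1191 and 1535 CPM in WT. Inhba, the activin beta-A gene of growing follicles, was at 348 and 1369 CPM in ++Oxtr and 509 and 1342 CPM in WT, and so varied by more within each genotype than between them. Serpine2, a protease inhibitor, was at 710 and 599 CPM in ++Oxtr and 663 and 607 CPM in WT. The summed level of the 23 genes was 7966 and 9013 CPM in ++Oxtr and 7672 and 10031 CPM in WT. The order of libraries of Gata4, Irx3 and Irx5 was met by 7 of these 23 genes, against 17.6% of all genes tested.

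Genes of testis supporting cells, among them factors of testis fate, were also read. Of 16 genes, 13 were tested and 0 passed in edgeR, with a median log2 difference of 0.03. Leaving out 1 library moved that median to between -0.05 and 0.29, the highest without WT replicate 6. Sox9, the Sertoli cell factor that FOXL2 holds down in mice, was at 8.49 and 23.0 CPM in ++Oxtr and 15.6 and 15.1 CPM in WT, and the genotypes overlapped. Sox9 was lowest in the library with few oviduct markers, and their part in its level was not tested. Dmrt1, a testis factor, had 0 counts in all 4 libraries. Cyp26b1, which breaks down retinoic acid, was at 23.9 and 16.2 CPM in ++Oxtr and 7.44 and 8.85 CPM in WT. Its log2 difference was 1.30 ± 0.30 (SE), with adjusted p = 1 and unadjusted p = 0.0106 in edgeR and adjusted p = 0.134 in DESeq2. It was the 1 gene of the 13 tested at an unadjusted p under 0.05, against 2.57% of all genes tested. Clu (clusterin) was by far the most abundant of the list, at 724 and 570 CPM in ++Oxtr and 529 and 1040 CPM in WT, and Aard was at 15.4 and 12.9 CPM in ++Oxtr and 9.28 and 17.4 CPM in WT.

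A list of steroidogenic genes known as GATA targets, which also holds Lhcgr and the inhibin gene Inha, was tested in full. Of these genes, 0 of 8 passed in edgeR and 7 of 8 were below 0. Their median log2 difference of -0.92 was set by WT replicate 6, the library with the highest Gata4, and was 0.51 without it. Scarb1, which takes up cholesterol, was at 152 and 160 CPM in ++Oxtr and 120 and 649 CPM in WT. Star (cholesterol transport), Cyp11a1 (pregnenolone synthesis), Hsd3b1, Cyp17a1 and Lhcgr, the luteinising hormone receptor, had their top value there too. Aromatase (Cyp19a1) did not: it was at 23.8 and 73.2 CPM in ++Oxtr and 8.57 and 63.2 CPM in WT. Luteal cells make several of these transcripts too. Star, Cyp11a1, Hsd3b1 and Lhcgr also belong to the luteal list, so the rise of both lists in WT replicate 6 is partly that of the same genes. The part of the luteal markers in the Gata4 level of that library was not tested.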

How the data were processed

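Whole-ovary RNA of 4 libraries was read from 1 deposited table. Per the file headers it holds a read count and an FPKM value per gene and library. The deposited counts are raw whole numbers, and the deposited FPKM values were made by the authors. The submitters' processing notes name mm10. The aligner, the counter, its gene annotation and its strand setting were not given in the sources used here, so reads of Foxl2, Gata6, Runx1 and Irx3 and of the antisense genes that GENCODE M21 annotates over them cannot be told apart. Identifiers of all 7 genes were found in GENCODE M21, and the deposited positions were the same there for Gata6 alone. Library totals were 15229810 to 16517764 counts.

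Groups and replicate numbers come from the sample titles. The labels do not say whether libraries came from separate animals, so p-values measure only the spread between libraries, which may be technical. The main test was edgeR 4.0.16 (quasi-likelihood, TMM scaling, filterByExpr with a minimum count of 10; R 4.3.3) over all genes, with Benjamini-Hochberg adjustment. SE and 95% intervals come from that fit with its moderated degrees of freedom. Levels are TMM-scaled CPM with the SD over 2 libraries. Centred log2 CPM used a prior count of 2. Alternatives were DESeq2 1.42.0, limma 3.58.1 (voom, or trend on log2 FPKM with a pseudocount of 1 or 0.1), other scalings, other filters and each library left out. The fits were also run on simulated counts with set fold changes in some genes. Those counts held no differences in tissue content between libraries, so that run does not speak to such differences.

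The members and gene lists were chosen with earlier results of these data known. Named were the 7 genes, Oxtr, the 4 most abundant genes of a list or the whole of a short one, and the nearest genes by likeness. Other genes were chosen after their values were seen, and not every gene the rule allows is printed.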

Additional observations from a re-analysis of the deposited data

How the results depend on the processing

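No paired analysis was possible because the genotypes share no replicate number. Of 63 values for the 7 genes under other tools, scalings, filters and units, 63 kept the sign of the main fit and none was called. Of 28 values from fits that left out 1 library, 20 kept the sign and 8 turned it, again with no call. Over those fits the log2 difference ran from -0.00020 to 0.37 for Foxl2, -0.57 to 0.14 for Gata4, 0.03 to 0.11 for Gata6, -0.19 to 0.05 for Runx1, -0.47 to 0.30 for Irx3, -0.33 to 0.48 for Irx5 and 0.01 to 0.15 for Wt1. The turned values were -0.00020 for Foxl2 and -0.33 for Irx5 without WT replicate 5, 0.14 for Gata4, 0.03 for Runx1 and 0.30 for Irx3 without WT replicate 6, 0.049 for Runx1 and 0.055 for Irx3 without ++Oxtr replicate 4, and -0.27 for Irx5 without ++Oxtr replicate 3. Fits without a ++Oxtr or WT library take the lone one to vary like the other genotype. Over all genes, edgeR called 0, with 393 at an unadjusted p under 0.05, limma called 0 and DESeq2 called 70. Leaving out 1 library gave 0 to 65 calls in edgeR, with 65 without ++Oxtr replicate 4, of which 7 were higher and none was among the 7 genes. The cause was not tested. Counting precision is weakest for Irx5, with 73 to 121 counts per library.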

Other observations

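Genes beside the 7 factors in the deposited table showed how far levels at these loci went with their neighbours. Fto, left of Irx3 by 130 kb and host of long-range Iroquois enhancers in mice, was at 83.0 and 106 CPM in ++Oxtr and 103 and 121 CPM in WT, an order of libraries unlike that of Irx3. Its log2 difference was -0.25 ± 0.17 (SE, edgeR, unadjusted p = 0.214, adjusted p = 1). Neil2, a DNA repair gene 5.07 kb from Gata4, was at 7.71 and 6.55 CPM in ++Oxtr and 5.12 and 8.54 CPM in WT, highest and second highest in the same libraries as Gata4. Of all genes tested, 17.6% had ++Oxtr replicate 3 and WT replicate 6 above the others. Blk, 101 kb away on the other side of Gata4, was at 1.30 and 1.40 CPM in ++Oxtr and 1.61 and 0.753 CPM in WT. It was lowest in the library where Gata4 was highest, but at levels this low the order of libraries is imprecise. Clic6, 60.2 kb from Runx1, was at 0.518 and 10.6 CPM in ++Oxtr and 16.0 and 10.2 CPM in WT, and so was nearly missing in the library with few oviduct markers, while Runx1 was not. Mib1, the nearest gene left of Gata6, was at 204 and 220 CPM in ++Oxtr and 211 and 210 CPM in WT, and Faim, right of Foxl2, at 21.6 and 18.8 CPM in ++Oxtr and 20.2 and 20.9 CPM in WT.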
